A study of Mus musculus with 15 samples.

Results

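The genes described here are 10 receptors of innate pattern recognition among the 35142 genes measured. *Fpr1* and *Marco* were chosen by their measured rise with the concentration of IL-12 in these same cultures, so their levels are given as a description and carry no test. *Fpr2*, *Msr1*, *Cd36*, *Clec7a*, *Tlr1*, *Tlr2*, *Tlr4* and *Cd14* were added as relatives by family or ligand, to see whether they moved along. They too were chosen with earlier results of these data known. The cultures were dissociated cerebellar cells of P0-P4 pups of wild-type C57BL/6 mice ("C57BL/6 wt"), grown to day 14 in vitro (DIV14). IL-12p70, the bioactive heterodimeric form of the cytokine (recombinant, murine), was added for 18 h to 5 cultures at 30 ng/ml and to 5 cultures at 100 ng/ml, and 5 were left unstimulated. Bulk RNA of each of the 15 cultures was sequenced, with between 25746096 and 38435850 reads assigned to genes per culture. The labels call the cells neurons, but glial transcripts were abundant, with summed markers at 5888 to 10355 TPM (a share of all transcripts, corrected for length) for microglia and 303 to 420 TPM for cerebellar neurons.

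Pattern receptors let macrophages, microglia and granulocytes sense microbial products and debris without prior sensitization. Formyl peptide receptors couple to G proteins and guide cells toward *N*-formylated peptides of bacteria and mitochondria. Scavenger receptors take up modified lipoproteins, particles and dying cells, Dectin-1 binds β-glucans of fungi, and Toll-like receptors recruit MyD88 or TRIF to switch on NF-kB and cytokine genes.

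*Fpr1* (ENSMUSG00000045551), which encodes the high-affinity formyl peptide receptor, lies at chr17:18096733-18104202 on the minus strand of GRCm39. It was barely expressed in unstimulated cultures, where replicates 1 to 5 had 1.02, 0.825, 0.840, 0.860 and 0.879 CPM, a read count scaled to library size with TMM factors. With 30 ng/ml IL-12 the 5 cultures had 2.01, 1.81, 1.61, 1.41 and 1.56 CPM, and with 100 ng/ml they had 5.61, 6.81, 5.02, 4.78 and 4.69 CPM. The 3 groups did not overlap, and each step in concentration gave higher values in every culture. The means were 0.885 ± 0.0779, 1.68 ± 0.235 and 5.38 ± 0.874 CPM (SD, n = 5), and the fitted log2 difference from unstimulated cultures was 0.91 (SE 0.15) at 30 ng/ml and 2.59 (SE 0.14) at 100 ng/ml, or 6.01-fold. The counts behind these values were small, with 23 to 39 reads per unstimulated culture against 142 to 179 at 100 ng/ml.

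*Marco* (ENSMUSG00000026390; chr1:120402267-120432753, minus strand), a collagenous scavenger receptor of macrophages that binds bacteria and particles, showed a similar step. Unstimulated cultures had 3.92, 7.74, 5.55, 7.10 and 3.90 CPM in replicates 1 to 5. Cultures with 30 ng/ml had 12.5, 13.1, 7.90, 12.5 and 12.8 CPM. Cultures with 100 ng/ml had 29.1, 35.2, 35.1, 27.1 and 32.5 CPM. Every culture of a higher concentration exceeded every culture of the lower one, although replicate 3 at 30 ng/ml came close to the highest unstimulated culture. The group means were 5.64 ± 1.77, 11.8 ± 2.18 and 31.8 ± 3.61 CPM (SD, n = 5), a log2 difference of 1.07 (SE 0.18) at 30 ng/ml and 2.50 (SE 0.17) at 100 ng/ml, or 5.67-fold. Between the concentrations the log2 difference was 1.67 (SE 0.13) for *Fpr1* and 1.43 (SE 0.16) for *Marco*.

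**Figure D1:**
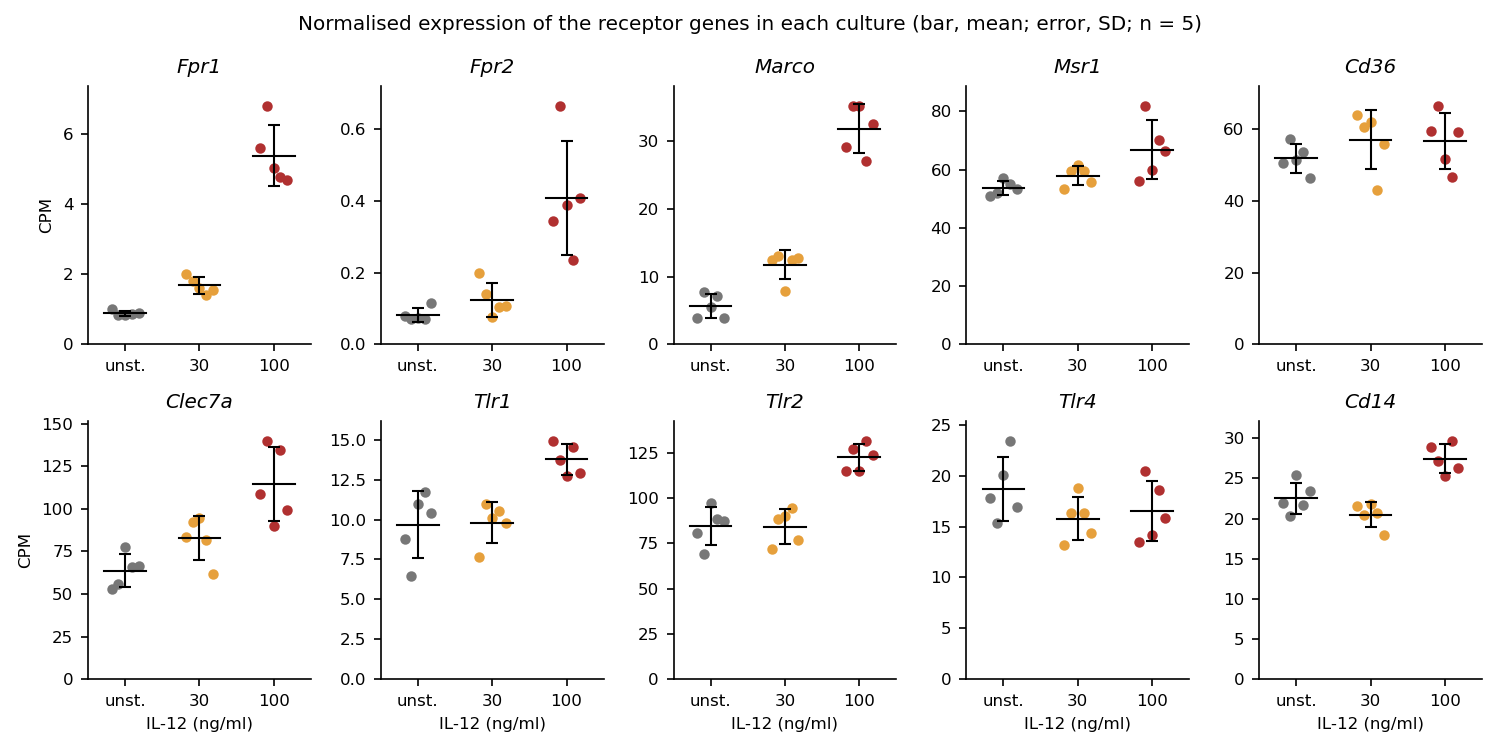
Normalised expression (CPM, linear axis from 0) of the 10 receptor genes in each culture by IL-12 concentration (points, cultures; horizontal bar, mean; error bar, SD; n = 5 per group). *Fpr1* goes from a mean of 0.885 to 5.38 CPM and *Marco* from 5.64 to 31.8 CPM, whereas *Tlr4* and *Cd36* overlap across all groups.

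*Fpr2* (ENSMUSG00000052270; chr17:18108070-18114215, plus strand), the lower-affinity formyl peptide receptor that also binds annexin A1 and serum amyloid A, is the neighbour of *Fpr1*. It had 3, 2, 2, 2 and 3 reads in the unstimulated cultures, 6, 4, 2, 3 and 3 reads with 30 ng/ml and 11, 17, 12, 7 and 14 reads with 100 ng/ml. No culture reached 1 CPM, so it did not pass the filter on low counts and was not tested with the others. The pooled reads at 100 ng/ml, 61 against 12 in unstimulated cultures, gave a depth-corrected ratio of 4.92 (95% exact interval 2.62 to 10.05, which covers counting error only). The ratio at 30 ng/ml was 1.55 (0.705 to 3.52), an interval that includes no difference. When genes of any count were tested with edgeR, *Fpr2* had a log2 fold change of 2.26 (FDR = 0.00118) at 100 ng/ml and 0.60 (FDR = 0.629) at 30 ng/ml. *Fpr2* overlaps *Fpr3* on the same strand and the family members resemble each other, so the division of reads among them is uncertain. None of the other receptors of the family (*Fpr3*, *Fpr-rs3*, *Fpr-rs4*, *Fpr-rs6* and *Fpr-rs7*) passed the filter.

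Of the 8 relatives, 7 passed the filter and were tested in 1 edgeR model with all 15360 genes that had at least 1 CPM in at least 2 cultures. Calls were made at a false discovery rate (FDR, Benjamini-Hochberg) under 0.05. At 100 ng/ml against unstimulated, 5 of the 7 were higher (*Clec7a*, *Tlr2*, *Tlr1*, *Msr1* and *Cd14*) and 0 were lower, where 9.77% of all tested genes were called and 5.83% were called higher. Their log2 fold changes had a median of 0.32, against -0.004 over all tested genes. Since the relatives were chosen with earlier results of these data known, this comparison with all genes is not an independent one. At 30 ng/ml 0 of the 7 were called in edgeR's quasi-likelihood test, where 7.87% of all genes were called and 4.16% were called higher. With edgeR's unadjusted p under 0.05 the count was 1, for *Clec7a*. The same gene was the 1 member called by DESeq2 (FDR = 0.0472) and by edgeR's likelihood-ratio test (FDR = 0.0464). Between 100 and 30 ng/ml, 2 of the 7 were higher (*Tlr2* and *Cd14*) and 0 were lower, where 0.579% of all genes were called and 0.501% were called higher. DESeq2 and the likelihood-ratio test called 4 there, adding *Clec7a* and *Tlr1*. Both concentrations are compared with the same 5 unstimulated cultures, so their fold changes are not independent of each other.

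**Figure D2:**
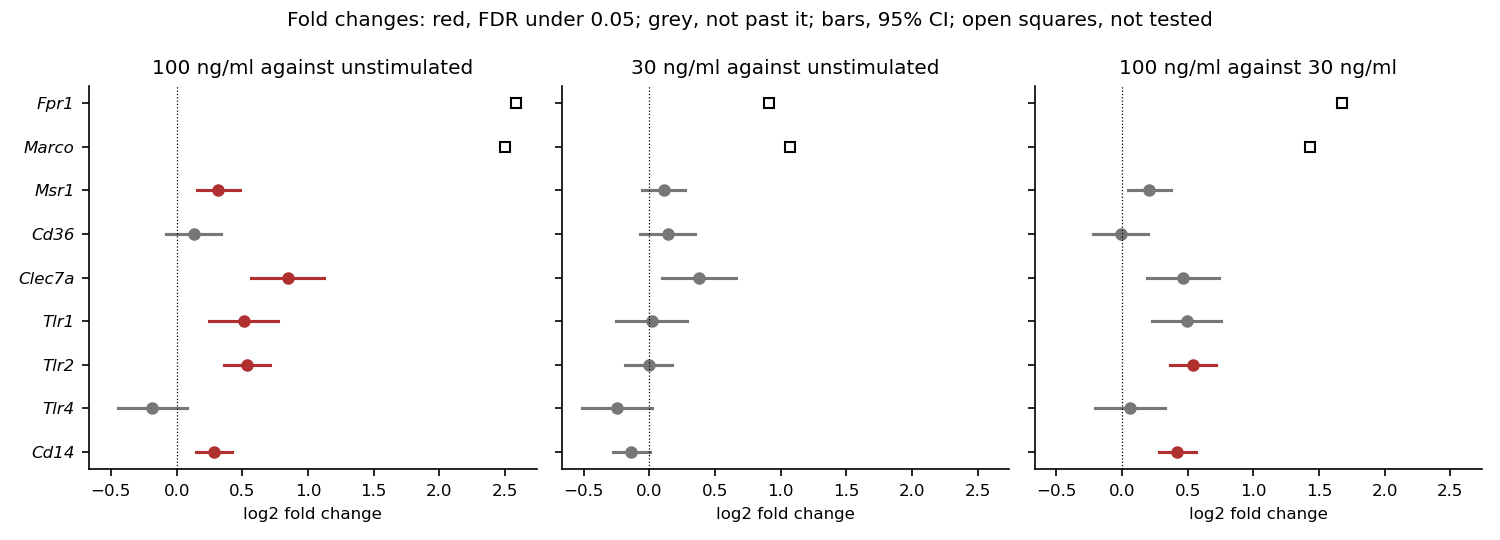
Log2 fold changes of the 9 receptor genes past the filter in the 3 comparisons (points, edgeR estimates; bars, 95% confidence intervals; red, FDR under 0.05; grey, not past it; open squares, *Fpr1* and *Marco*, not tested). At 100 ng/ml against unstimulated *Clec7a* reaches 0.85 and *Tlr2* 0.54, and *Fpr1* and *Marco* stand at 2.59 and 2.50.

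*Clec7a* (ENSMUSG00000079293; chr6:129438554-129449742, minus strand), which encodes Dectin-1, showed the largest change among the tested relatives. The unstimulated cultures had 53.0, 55.6, 77.8, 65.8 and 66.5 CPM. With 30 ng/ml the values were 83.5, 92.1, 94.8, 81.9 and 61.9 CPM, and at 100 ng/ml they were 109, 140, 89.9, 134 and 99.4 CPM. All cultures at 100 ng/ml were above all unstimulated ones, while replicate 5 at 30 ng/ml fell within the unstimulated range. The log2 fold change was 0.85 (SE 0.13, FDR = 0.000696) at 100 ng/ml, or 1.80-fold, 0.38 (95% interval 0.10 to 0.66, FDR = 0.0878) at 30 ng/ml and 0.47 (FDR = 0.146) between the concentrations. Without replicate 5 of the 30 ng/ml group, the change at 30 ng/ml was 0.47 with an FDR of 0.0391.

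*Tlr2* (ENSMUSG00000027995; chr3:83743576-83749074, minus strand) encodes the receptor for bacterial lipoproteins, which works as a dimer with TLR1 or TLR6. Its unstimulated values were 80.9, 69.1, 97.4, 88.3 and 87.4 CPM, and those at 30 ng/ml were 71.8, 88.2, 90.1, 94.4 and 76.8 CPM. Under 100 ng/ml the cultures had 115, 127, 115, 132 and 124 CPM, all above every culture of the other groups, which overlapped each other. The change was 0.54 on the log2 scale at 100 ng/ml (SE 0.08, FDR = 0.000684), -0.01 at 30 ng/ml (95% interval -0.18 to 0.17, FDR = 0.979) and 0.54 between the concentrations (FDR = 0.00428). *Tlr2* thus differed only at the higher concentration in this test.

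*Tlr1* (ENSMUSG00000044827; chr5:65082022-65090941, minus strand), the partner of TLR2 for triacylated lipopeptides, was less abundant. It had 8.81, 6.49, 11.0, 11.7 and 10.4 CPM in unstimulated cultures, 7.62, 10.9, 10.1, 10.5 and 9.80 CPM after 30 ng/ml, and 14.9, 13.7, 12.7, 14.6 and 12.9 CPM after 100 ng/ml. The cultures at 100 ng/ml again lay above all others. The estimate at 100 ng/ml was a log2 fold change of 0.51 (SE 0.13, FDR = 0.0159), against 0.02 at 30 ng/ml (95% interval -0.25 to 0.29, FDR = 0.956). Between the concentrations it was 0.49 (95% interval 0.23 to 0.76) and missed the threshold in the quasi-likelihood test (FDR = 0.101), although it passed when the 2 concentrations were fitted on their own (FDR = 0.0257) or without unstimulated replicate 2 (FDR = 0.0194).

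*Tlr4* (ENSMUSG00000039005; chr4:66745783-66849936, plus strand), the receptor for lipopolysaccharide, was not called in any of the 3 comparisons. Its values were 17.8, 15.4, 20.1, 23.4 and 16.9 CPM in unstimulated cultures, 13.2, 16.3, 18.8, 16.3 and 14.3 CPM after 30 ng/ml, and 13.5, 20.4, 14.2, 18.6 and 15.9 CPM after 100 ng/ml, with all groups overlapping. The log2 fold change was -0.18 (95% interval -0.45 to 0.08, FDR = 0.380) at 100 ng/ml and -0.25 (-0.51 to 0.02, FDR = 0.263) at 30 ng/ml. The upper bound at 100 ng/ml thus lay below the lower bounds of *Tlr2* (0.36) and *Tlr1* (0.25), although the difference between the genes was not itself tested. *Tlr4* overlaps 3 long noncoding RNA genes, 2 of them on its own strand, and the deposited estimates divide reads between overlapping transcripts.

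*Cd14* (ENSMUSG00000051439; chr18:36858120-36859851, minus strand) encodes the co-receptor that hands lipopolysaccharide to TLR4 and lipopeptides to TLR2. It had 22.0, 20.3, 25.4, 21.7 and 23.4 CPM in unstimulated cultures, 21.6, 20.4, 21.8, 20.8 and 17.9 CPM after 30 ng/ml, and 28.9, 27.2, 25.3, 29.7 and 26.3 CPM after 100 ng/ml. Of the cultures at 100 ng/ml, 4 of 5 exceeded every unstimulated culture and all 5 exceeded every culture at 30 ng/ml. The log2 fold change was 0.29 at 100 ng/ml (SE 0.07, FDR = 0.0116), -0.14 at 30 ng/ml (95% interval -0.28 to 0.005, FDR = 0.238) and 0.42 between the concentrations (FDR = 0.00484).

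Of the other scavenger receptors among the members, *Msr1* rose at 100 ng/ml and *Cd36* was not called. *Msr1* (ENSMUSG00000025044; chr8:40034726-40095714, minus strand), the macrophage scavenger receptor for modified lipoproteins, had 50.8, 51.9, 57.2, 55.0 and 53.5 CPM in unstimulated cultures, 53.3, 59.5, 61.5, 59.6 and 55.7 CPM after 30 ng/ml, and 56.2, 81.9, 59.8, 70.1 and 66.5 CPM after 100 ng/ml. At 100 ng/ml 4 of 5 cultures exceeded every unstimulated culture, with a log2 fold change of 0.32 (SE 0.08, FDR = 0.0162) against 0.11 (95% interval -0.05 to 0.27, FDR = 0.439) at 30 ng/ml. *Cd36* (ENSMUSG00000002944; chr5:17986432-18094067, minus strand), a receptor for long-chain fatty acids and oxidized lipoproteins, had 50.5, 57.1, 51.5, 53.7 and 46.3 CPM in unstimulated cultures, 63.9, 60.5, 62.1, 43.1 and 56.0 CPM after 30 ng/ml, and 59.6, 66.5, 51.7, 46.6 and 59.2 CPM after 100 ng/ml. Its groups overlapped throughout, and the 95% interval of its log2 fold change at 100 ng/ml ran from -0.08 to 0.34 (estimate 0.13, FDR = 0.453). *Msr1* and *Cd36* each overlap a long noncoding RNA gene on the opposite strand.

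Per transcript length (TPM), the members spanned more than the range of any change with IL-12. In unstimulated cultures *Clec7a* stood highest at a mean of 59.9 TPM, above *Tlr2* (43.8), *Msr1* (42.0) and *Cd36* (38.2), which overlapped from neighbour to neighbour. *Cd14* followed at 25.2 TPM, then *Tlr4* (7.46), *Tlr1* (6.79) and *Marco* (4.82), again overlapping between neighbours, and *Fpr1* (1.10) and *Fpr2* (0.152) were lowest. With 100 ng/ml *Marco* had moved from rank 8 to rank 6 at a mean of 27.5 TPM and overlapped *Cd14* (30.2 TPM). *Fpr1*, at 6.54 TPM, overlapped *Tlr4* at 6.50 TPM. *Clec7a* kept rank 1 at 103 TPM and did not overlap *Tlr2* at 62.6 TPM.

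**Figure D3:**
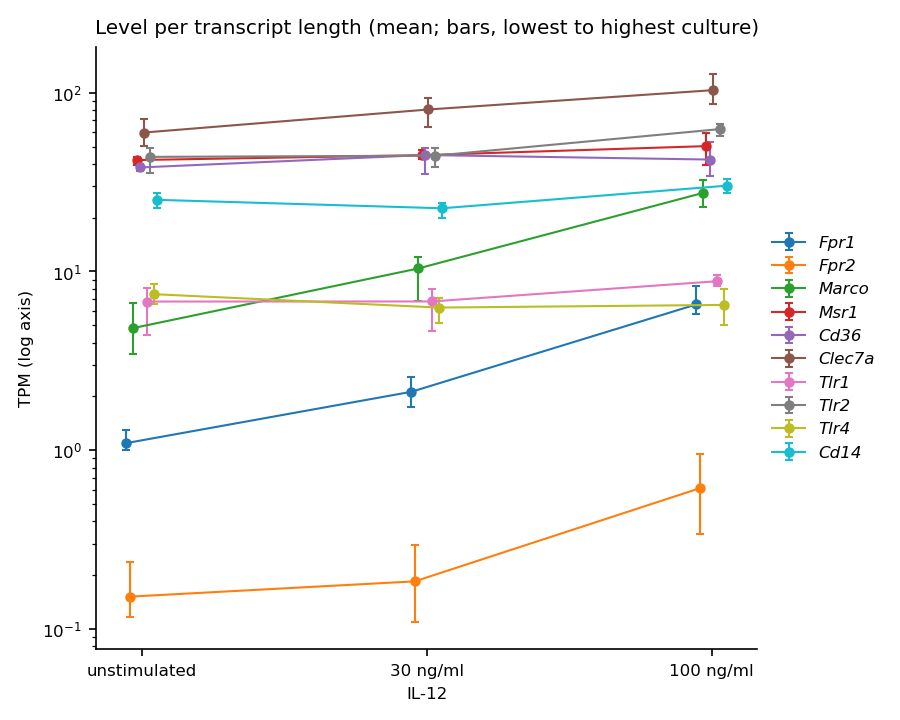
Level per transcript length (TPM, log axis) of the 10 receptor genes by IL-12 concentration (points, mean of 5 cultures; bars, lowest to highest culture). *Marco* climbs from 4.82 to 27.5 TPM and reaches *Cd14*, and *Fpr1* climbs from 1.10 to 6.54 TPM and reaches *Tlr4*.

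The level of microglia in the cultures was read from 19 annotated marker genes (a further listed one, *Fcrls*, was not found in the annotation), since macrophage-lineage cells are the known source of most of these receptors. Unstimulated cultures had a summed level of 8926 ± 1206 TPM, those with 30 ng/ml had 6786 ± 656 TPM and those with 100 ng/ml had 8081 ± 828 TPM (SD, n = 5). Every culture at 30 ng/ml lay below every unstimulated culture (difference -2140 TPM, exact permutation test, two-sided, p = 0.00794, the smallest it can give, adjusted p = 0.0238), whereas at 100 ng/ml the difference of -845 TPM was within the spread (exact permutation p = 0.230). The separation at 30 ng/ml was narrow, with a highest culture of 7389 TPM against a lowest unstimulated one of 7390.5 TPM. With CPM in place of TPM the exact permutation test gave an adjusted p of 0.0357 there. The sum rose again by 1295 TPM between the concentrations (exact permutation p = 0.0317, adjusted p = 0.0476). That rise missed the threshold without replicate 1 or 5 at 30 ng/ml or without replicate 1, 2, 4 or 5 at 100 ng/ml (980 to 1349 TPM, exact permutation, adjusted p from 0.0714 to 0.107). Of the 18 microglia markers tested with edgeR, 9 fell and 0 rose at 30 ng/ml, where 7.87% of all tested genes were called. Those 9 included the complement genes *C1qa*, *C1qb* and *C1qc*. At 100 ng/ml 2 fell (*Gpr34* and *Selplg*) and 0 rose, or 11.1% of the markers, near the 9.77% called over all genes. In bulk RNA fewer microglia and less of this RNA per microglial cell cannot be told apart.

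Set against the mean log2 CPM of the 18 tested microglia markers in the same culture, 5 of the 7 tested relatives were higher than in unstimulated cultures at both concentrations. A gene with no change of its own would also gain wherever the markers fell. The share of all tested genes that would pass was not computed, so this count is not by itself a result about the receptors. *Clec7a* gained 0.72 at 30 ng/ml and 0.95 at 100 ng/ml on the log2 scale, and *Tlr2* gained 0.34 and 0.66 (each with an exact permutation p of 0.00794 and an adjusted p of 0.0139). *Tlr1* gained 0.38 and 0.65 with the same p-values, and *Msr1* gained 0.46 (adjusted p = 0.0139) and 0.42 (adjusted p = 0.0222, both by exact permutation). *Cd14* gained 0.21 (exact permutation, adjusted p = 0.0222) at 30 ng/ml and 0.40 (adjusted p = 0.0139) at 100 ng/ml. The gain of *Cd14* at 30 ng/ml missed the threshold without replicate 1 of that group (0.14, exact permutation, adjusted p = 0.0889) or on the scale of log2 TPM plus 1 (adjusted p = 0.0926). *Cd36* gained 0.48 (exact permutation, adjusted p = 0.0505) and 0.24 (adjusted p = 0.205), and *Tlr4* 0.11 (adjusted p = 0.111) and -0.07 (adjusted p = 0.532). Against this reference *Fpr1* stood 1.22 and 2.62 higher and *Marco* 1.43 and 2.64 higher, given as a description. These values hold the change of the markers too, whose mean log2 CPM went from 7.42 in unstimulated cultures to 7.07 at 30 ng/ml (a difference of -0.35) and 7.31 at 100 ng/ml (-0.11). At 30 ng/ml the mean log2 CPM of the receptors themselves differed from unstimulated cultures by 0.04 for *Tlr1*, -0.005 for *Tlr2* and -0.14 for *Cd14*, so the gains of these 3 are the fall of the markers. For *Msr1* its own difference was 0.11 and for *Clec7a* it was 0.38, of gains of 0.46 and 0.72. At 100 ng/ml the receptors' own differences made up most of the gains of *Clec7a* (0.84), *Tlr2* (0.54), *Tlr1* (0.53), *Msr1* (0.31) and *Cd14* (0.29).

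**Figure D4:**
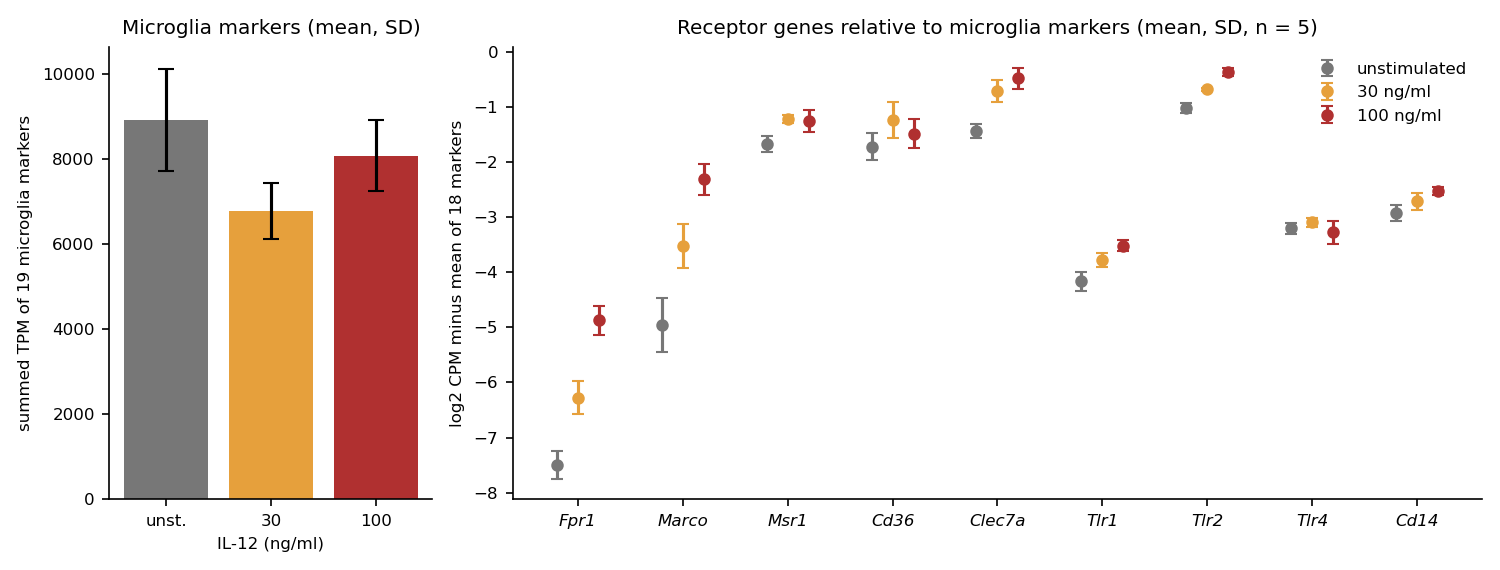
Left, summed TPM of 19 microglia markers by IL-12 concentration (bars, mean; error bars, SD; n = 5), from 8926 without IL-12 to 6786 at 30 ng/ml and 8081 at 100 ng/ml. Right, log2 CPM of each receptor gene minus the mean log2 CPM of 18 tested microglia markers in the same culture (points, mean; error bars, SD; n = 5 per group), where *Clec7a* gains 0.72 and 0.95 and *Tlr4* changes by 0.11 and -0.07.

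*Fpr1* is also a classical transcript of neutrophils. Of 12 neutrophil markers, *S100a9*, *Ly6g* and *Retnlg* were at 0 in every culture, and 7, these 3 included, had a mean under 0.1 TPM over all cultures. *Camp*, among the 7, had means of 0.0343, 0.0963 and 0.167 TPM in unstimulated cultures and at 30 and 100 ng/ml. In the same order *S100a8* had 1.63, 1.58 and 2.48 TPM and *Ltf* 0.285, 0.480 and 0.515 TPM. *Mmp8* (0.653, 0.436 and 0.406 TPM) and *Cxcr2* (0.282, 0.251 and 0.249 TPM) were lower with IL-12. The sum of the 12 ranged from 13.7 to 24.5 TPM in unstimulated cultures, with 14.2 to 17.4 TPM under 30 ng/ml and 15.4 to 19.3 TPM under 100 ng/ml of IL-12. Of that sum 16.0 TPM in unstimulated cultures came from *Csf3r*, the receptor of granulocyte colony-stimulating factor, which microglia also express and which fell at 30 ng/ml (log2 fold change -0.39, FDR = 0.0282). Of 11 markers of border macrophages and monocytes 4 were tested, of which *Ms4a7* rose (0.35, FDR = 0.0339) and *Pf4* fell (-0.58, FDR = 0.0116) at 100 ng/ml. At 30 ng/ml *Pf4* alone was called (-0.76, FDR = 0.00269), and between the concentrations *Ms4a7* (0.49, FDR = 0.0294) and *Clec12a* rose. Over all tested genes 9.77%, 7.87% and 0.579% were called in these comparisons, and so few markers say little beside those shares. The monocyte genes *Ccr2* and *Ly6c2* had means of 0.0893 and 0.0437 TPM in unstimulated cultures and 0.0600 and 0.0408 TPM at 100 ng/ml.

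Promoter sequence was compared for the pair that rose together and for *Clec7a*, the most changed of the relatives past the filter. The 250 bases before the RefSeq start site (table of GRCm38.p6, placed in GRCm39 by exact match) are given 5′ to 3′ on the gene's strand, at chr17:18104202-18104451, chr1:120432754-120433003 and chr6:129449743-129449992, all on the minus strand.
Fpr1: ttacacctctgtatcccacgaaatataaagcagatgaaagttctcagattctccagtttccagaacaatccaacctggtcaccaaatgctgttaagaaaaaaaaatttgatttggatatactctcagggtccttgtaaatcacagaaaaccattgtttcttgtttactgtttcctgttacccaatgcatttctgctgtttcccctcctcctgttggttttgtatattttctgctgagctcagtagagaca
Marco: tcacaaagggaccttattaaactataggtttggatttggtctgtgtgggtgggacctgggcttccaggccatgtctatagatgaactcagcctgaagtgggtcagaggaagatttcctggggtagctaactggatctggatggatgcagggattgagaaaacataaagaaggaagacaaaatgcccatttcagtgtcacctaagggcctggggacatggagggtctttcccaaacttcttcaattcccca
Clec7a: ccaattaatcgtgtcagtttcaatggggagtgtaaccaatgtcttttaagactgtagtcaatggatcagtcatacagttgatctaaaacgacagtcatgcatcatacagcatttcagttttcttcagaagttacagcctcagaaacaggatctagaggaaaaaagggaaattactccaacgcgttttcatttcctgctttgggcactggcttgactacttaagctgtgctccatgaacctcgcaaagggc
Both strands were searched for an NF-kB motif, a STAT motif (TTCNNNGAA), a PU.1 motif (AGGAAGT), an AP-1 motif (TGANTCA), a C/EBP motif (TTGCNNAA) and an interferon-stimulated response element (GAAANNGAA), none of which was found in these windows. Among 32817 promoters of the same length the motifs were present in 3.9%, 7.01%, 7.69%, 6.75%, 9.57% and 7.12%, in that order. Of the 10 members 7 were searched, since *Cd14* was left out beforehand and no usable entry was found for *Msr1* and *Tlr4*. Matches were found for *Tlr2* (NF-kB, at -173 and -172, overlapping each other), *Tlr1* (PU.1 at -22, and STAT at -228 of another start) and *Fpr2* (STAT at -77). The 30 bases of *Tlr2* that hold its NF-kB matches, with the matched letters in capitals, lie just upstream of the annotated gene at chr3:83749075-83749104 on the minus strand.
Tlr2: tctctttaggacacctGGGGAATTCCCaca
These are matches of letters in a short window, and binding was not measured.

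The nearest functional relatives of the members outside the chosen set are summarised by lists of genes, each described by how many members were called. They were chosen with earlier results of these data known. Over all tested genes, 5.83% were called higher at 100 ng/ml, 4.16% at 30 ng/ml and 0.501% between the concentrations, and 9.77%, 7.87% and 0.579% were called in either direction. Among C-type lectin receptors other than *Clec7a*, 7 of 9 tested genes rose and 0 fell at 100 ng/ml (median log2 fold change 0.88), 2 rose at 30 ng/ml and 4 rose between the concentrations. *Clec4e*, which encodes the mycobacterial glycolipid receptor Mincle, went from 0.646 ± 0.160 CPM in unstimulated cultures to 1.20 ± 0.379 and 2.55 ± 0.163 with the lower and the higher concentration (SD, n = 5; log2 fold change 1.97 at 100 ng/ml, FDR = 9.16e-06). *Clec4d*, which encodes its partner MCL, went from 4.15 to 5.81 and 7.62 CPM (0.88 at 100 ng/ml, FDR = 2.88e-06). *Clec4n*, which encodes the mannan receptor Dectin-2, went from 0.925 to 1.30 and 2.07 CPM (1.14, FDR = 0.00161), and *Clec4a1* from 0.656 to 1.02 and 2.29 CPM (1.79, FDR = 5.88e-05). *Clec4e*, *Clec4a1* and *Clec4a2* reached the filter's 1 CPM (before TMM scaling) in 0 of 5 unstimulated cultures, so these 3 passed the filter through the stimulated cultures, where they are high, and their calls are not independent of it. Of the other 6 lectin receptors tested, 4 rose and 0 fell at 100 ng/ml (median log2 fold change 0.58), 1 rose at 30 ng/ml and 2 between the concentrations. Among 12 genes of proteins that signal downstream of Dectin-1, 0 were called at 100 ng/ml with edgeR or DESeq2 (1 lower at an unadjusted p under 0.05). With 9.77% of all tested genes called there, 0 of 12 is near that share and is no result about this list. Under 30 ng/ml 3 of these 12 genes fell, namely *Tyrobp* (-0.43, FDR = 0.0168), *Vav1* (-0.35, FDR = 0.0175) and *Plcg2* (-0.28, FDR = 0.0391). Between the concentrations 0 were called by edgeR's quasi-likelihood test, with a median log2 fold change of 0.24. At edgeR's unadjusted p under 0.05, 7 were higher there and 0 lower, and DESeq2 and the likelihood-ratio test called *Ptpn6* higher.

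The other Toll-like receptors were not called higher in any comparison. Of 6 tested, 0 were called at 100 ng/ml by edgeR's quasi-likelihood test, by its likelihood-ratio test or by DESeq2, and 0 had an unadjusted p under 0.05. With 9.77% of all tested genes called there, 0 of 6 is near that share and is no result about this list. *Tlr13*, a sensor of bacterial ribosomal RNA, fell by 0.39 at 30 ng/ml (FDR = 0.0231) and *Tlr6*, the other partner of TLR2, fell by 0.35 (FDR = 0.0365) on the log2 scale. Of 7 accessory proteins, *Ly86* fell at both concentrations (-0.46, FDR = 0.0152 and -0.61, FDR = 0.00316 at 100 and 30 ng/ml) and *Cd180* fell at 30 ng/ml (-0.38, FDR = 0.0205), and the products of both form a complex that tempers TLR4 signals. Of 15 adaptors and kinases, *Irak3*, an inhibitory kinase of the pathway, rose at 100 ng/ml from 7.05 to 12.5 CPM (0.82, FDR = 0.000173) as did *Myd88*, the shared adaptor (0.26, FDR = 0.0152), while *Traf6* (-0.29, FDR = 0.0136) and *Tab2* fell. Of these 15, the lower concentration gave 1 that rose (*Irak1*) and 1 that fell (*Irak2*, -0.27, FDR = 0.0135), and between the concentrations *Irak3* alone was called (0.74, FDR = 0.00284).

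Of 20 tested genes that Toll-like receptor ligands are known to induce, 11 rose and 0 fell at 100 ng/ml (median 0.37), 5 rose and 1 fell at 30 ng/ml, and 5 rose between the concentrations. *Cxcl1* passed the filter through the stimulated cultures, with 0 of 5 unstimulated ones at 1 CPM. Without it 10 of 19 rose at 100 ng/ml (median 0.34), and 4 rose and 1 fell at 30 ng/ml. *Acod1*, which encodes the enzyme that makes itaconate, went from 3.22 ± 0.671 to 5.00 ± 0.683 and 17.2 ± 2.24 CPM (2.40 at 100 ng/ml, FDR = 2.74e-09), and *Saa3*, an acute-phase protein, from 3.93 ± 0.632 to 7.45 ± 1.95 and 22.4 ± 3.54 CPM (2.50, FDR = 4.82e-08; SD, n = 5). *Nfkbia*, the inhibitor of NF-kB, rose by 0.41 (FDR = 8.35e-05) and *Tnf* by 0.63 (FDR = 0.000104) at 100 ng/ml. The gene that fell at 30 ng/ml was *Tnfaip3*, another inhibitor of the pathway.

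Of 13 other scavenger receptors, 3 rose and 1 fell at 100 ng/ml, 1 rose and 3 fell at 30 ng/ml, and 1 rose between the concentrations. *Cxcl16*, which serves both as a scavenger receptor for oxidized lipoprotein and as a chemokine, rose by 0.52 at 100 ng/ml (28.5 to 40.7 CPM, FDR = 0.000858). *Scarb2*, the lysosomal membrane receptor of β-glucocerebrosidase, fell by 0.19 (FDR = 0.00540). *Cd68* and *Lrp1* fell at 30 ng/ml by 0.45 (FDR = 0.00930) and 0.31 (FDR = 0.0108). Of 14 cytosolic pattern receptors and their adaptors, *Nod1* rose by 0.18 (FDR = 0.0303) and *Nlrp1b* fell by 0.56 (FDR = 0.00630) at 100 ng/ml, and these were also the 2 called at 30 ng/ml. Such a count is near the 9.77% and 7.87% called over all genes, and is no result about this list. *Anxa1*, whose product is a ligand of the formyl peptide receptors, was the 1 gene of its list to pass the filter, and it rose from 101 ± 9.32 CPM to 131 ± 13.2 CPM at 100 ng/ml (0.38, FDR = 0.00211) with 103 ± 3.96 CPM at 30 ng/ml (0.03, FDR = 0.868).

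**Figure D5:**
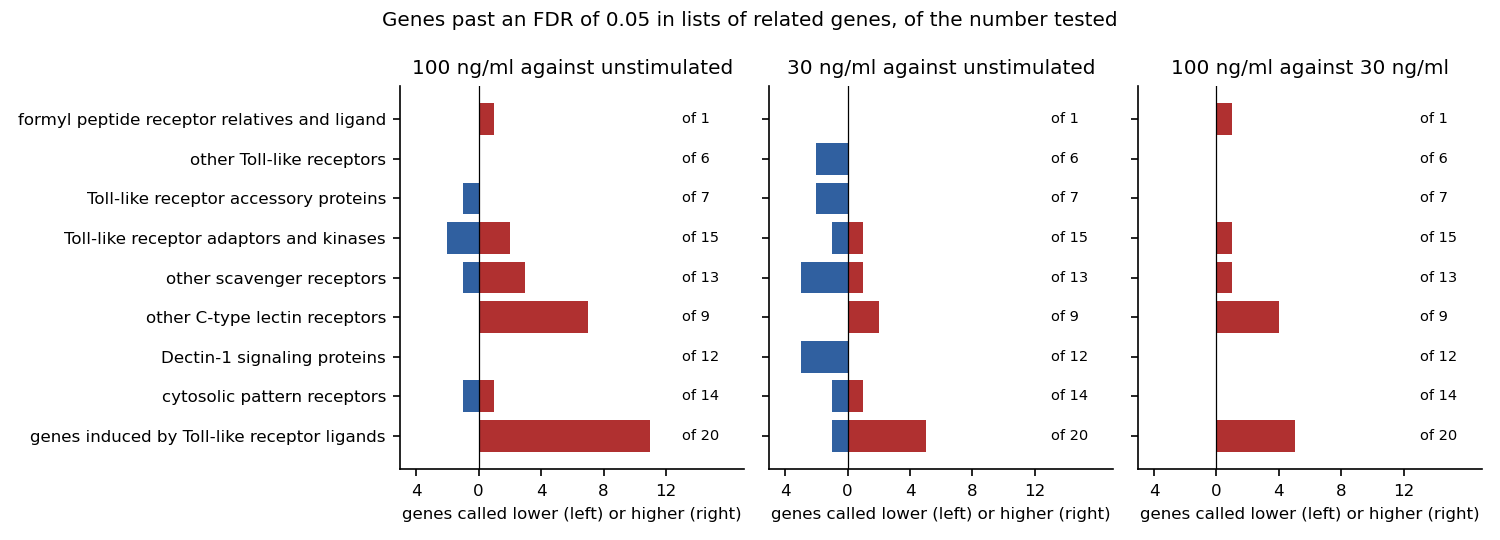
Numbers of genes called lower (blue, left) or higher (red, right) at an FDR under 0.05 in 9 lists of genes related to the receptors, in each of the 3 comparisons, with the number tested at the right (in the uppermost list, *Anxa1* alone). At 100 ng/ml 7 of 9 C-type lectin receptors and 11 of 20 genes induced by Toll-like receptor ligands are higher, and 0 of 6 other Toll-like receptors. Over all tested genes 5.83% are higher there, and 0 of 6 is near that share. *Clec4e*, *Clec4a1*, *Clec4a2* and *Cxcl1* passed the filter only through stimulated cultures, and without them 4 of 6 lectin receptors and 10 of 19 induced genes are higher.

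The genes whose log2 CPM followed *Fpr1* most closely over the 15 cultures, among 15348 compared, were *Acod1* (Pearson r = 0.977), *Slc13a3* (0.971), *Saa3* (0.949), *Tnfaip2* (0.943) and *Marco* (0.943). Those closest to *Marco* were *Slc13a3* (0.946), *Fpr1* (0.943), *Flywch2* (0.935), *Acot9* (0.932) and *Clec4d* (0.924). Among the relatives r with *Fpr1* was 0.843 for *Clec7a*, 0.799 for *Tlr2*, 0.724 for *Msr1*, 0.701 for *Tlr1*, 0.684 for *Cd14*, 0.332 for *Cd36* and -0.262 for *Tlr4*. The cultures fall into 3 groups of concentration, which these values mostly describe. After subtraction of the group means, r between *Fpr1* and *Marco* was -0.07, and r between *Fpr1* and *Acod1* was 0.37. For *Slc13a3*, *Saa3* and *Tnfaip2* r with *Fpr1* was then -0.021, -0.136 and 0.053. Among the relatives it was 0.624 for *Cd36* and between -0.257 (*Tlr2*) and 0.235 (*Clec7a*) for the others. With *Marco* it was 0.725 for *Flywch2*, 0.560 for *Acot9*, 0.371 for *Slc13a3* and 0.038 for *Clec4d*. The relatives ran from -0.507 (*Cd14*) to 0.235 (*Cd36*) with *Marco*.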

How the data were processed

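The study measured bulk RNA of 15 cultures of cerebellar cells, 5 per group, from TruSeq Stranded mRNA libraries. The authors deposited, per culture, an estimated count and a TPM value for each of 121798 transcripts. The program behind these estimates is not given in the sources used here. The methods describe STAR alignment and counting per gene with FeatureCounts, and the submitters' processing notes name FastQC 0.10.0, STAR 2.7.8a and featureCounts, so the deposited estimates are of another kind than the gene counts on which the tests had been planned. Whether strand was used is likewise not given.

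Estimated counts and TPM were summed to genes with GENCODE M39 on GRCm39, which matched 120537 transcripts (99.0%). The unmatched ones held 0.677% to 0.712% of reads. Counts were rounded and tested with edgeR 4.0.16 (R 4.3.3, TMM factors, quasi-likelihood test, 1 model of 3 groups, a floor of 1 CPM reached in 2 or more cultures, Benjamini-Hochberg FDR under 0.05). All FDR values are from edgeR unless DESeq2 (1.42.0) is named. Log2 CPM used a prior count of 2, from edgeR. Single values were compared by two-sided exact permutation tests in Python 3.11.15 (smallest p 0.00794), adjusted over 7 relatives and 2 concentrations for values relative to microglia markers and over 3 comparisons for their sum. The fits were tested on simulated data.

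The labels do not say whether cultures came from separate animals, so p-values measure the spread between these cultures. The members and all 18 lists (9 of related genes, 9 of cell type markers) were chosen with earlier results of these data known. Named genes are the 10 members, up to 4 genes per list with the lowest FDR among those called at either concentration against unstimulated (where none was called, the 2 with the highest mean level), and the 5 genes with the highest r to *Fpr1* and to *Marco*. Genes named to spell out a count of 5 or fewer, the markers at or near 0 and the other neutrophil markers fall outside this rule and were picked after their values were seen. The calls were repeated with DESeq2, with RLE factors or library size in place of TMM, with other filters, with the likelihood-ratio test, with the compared groups alone, with the replicate number as a block and with each culture left out, and the values relative to microglia on other scales and with fewer markers (the last is not reported here). Sequences are from RefSeq.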

Additional observations from a re-analysis of the deposited data

Results flagged for a closer look

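In 33 groups of 5 cultures, formed by the receptor genes and the summed microglia markers, 3 single cultures stood apart from the rest of their group by Dixon's test, which flags about 1 in 20 groups by chance. Unstimulated replicate 1 had 1.02 CPM of *Fpr1*, above the 0.825 to 0.879 CPM of the other 4 unstimulated cultures and below every culture at 30 ng/ml. Unstimulated replicate 5 had 0.115 CPM of *Fpr2*, against 0.0717 to 0.0784 CPM in the others, which rests on 3 reads against 2 or 3. Replicate 3 at 30 ng/ml had 7.90 CPM of *Marco*, below the 12.5 to 13.1 CPM of the other 4 cultures of that group and just above the highest unstimulated value of 7.74 CPM.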

How the results depend on the processing

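No result changed direction past its threshold under any of the 23 alternatives. *Clec7a*, *Tlr2*, *Tlr1*, *Msr1* and *Cd14* were called at 100 ng/ml against unstimulated in all 23, with the highest FDR at 0.0468 for *Tlr1* and 0.0463 for *Msr1*, and without a filter *Fpr2* was called too. At 30 ng/ml 1 relative was called by DESeq2, by the likelihood-ratio test and without replicate 5 of that group (*Clec7a*), and leaving out single cultures gave 0 to 1. Between the concentrations DESeq2 and the likelihood-ratio test called 4 relatives. Over all genes, 1500 were called at 100 ng/ml, 946 with only the groups compared, and 940 to 2932 when single cultures were left out (2932 without 100 ng/ml replicate 2, 953 and 949 without its replicates 1 and 3, 946 and 940 without unstimulated replicates 1 and 5). At 30 ng/ml 1209 were called and 673 to 1668 with a culture left out (740 and 754 without 30 ng/ml replicates 1 and 5, 673 and 794 without unstimulated replicates 3 and 4). Between the concentrations 89 were called (77 higher, 12 lower), 241 by DESeq2 (176 higher, 65 lower), 253 by the likelihood-ratio test (188 higher, 65 lower), and 38 to 147 with a culture left out (147, 56, 53 and 58 without 100 ng/ml replicates 2, 1, 4 and 5, 55 and 38 without 30 ng/ml replicates 1 and 5). The rise of the summed microglia markers between the concentrations was 980 to 1556 TPM with a culture left out and missed the threshold in 6 of those 10 cases (exact permutation, adjusted p from 0.0714 to 0.107). Relative to these markers, *Cd36* at 30 ng/ml passed on the scale of log2 TPM plus 1 (0.54, adjusted exact permutation p = 0.0333) and without unstimulated replicate 2 or 30 ng/ml replicate 4, and *Tlr4* at 30 ng/ml passed without unstimulated replicate 4. The cause of these shifts was not tested. With the replicate number as a replicate block, the relatives called were 5, 0 and 2, as without it, and 1169, 1081 and 69 genes were called in the 3 comparisons. The numbers do not pair the cultures, since same-numbered cultures correlated between -0.183 and 0.264 in their deviations from the group means. Depth limits *Fpr2*, which had at most 17 reads in a culture, and the lectins near 1 CPM.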

Other observations

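The make-up of transcripts of the receptor genes was compared in the members with at least 2 transcripts that held 10% or more of the gene's TPM in any group, of which 5 had passed the filter on low counts. The leading transcript of *Clec7a* (Clec7a-203) held 67.9% ± 1.84 of the gene's TPM without IL-12, 66.1% ± 4.01 after 30 ng/ml and 70.2% ± 4.63 after 100 ng/ml (SD, n = 5), and that of *Msr1* (Msr1-202) held 39.3% ± 2.02, 41.2% ± 3.92 and 40.4% ± 4.60. Clec7a-203 is annotated as protein_coding_LoF (loss of function). Clec7a-201, annotated as protein_coding, held 31.7%, 33.5% and 29.5% in the same order. For *Cd14* (Cd14-201) the shares were 86.7% ± 3.05, 91.9% ± 0.692 and 87.7% ± 2.39, for *Tlr1* (Tlr1-201) 50.2% ± 5.97, 49.3% ± 16.1 and 49.0% ± 7.76, and for *Cd36* (Cd36-203) 47.8% ± 13.1, 41.6% ± 11.7 and 39.9% ± 9.94. None of the 5 leading shares passed the threshold between 100 ng/ml and unstimulated cultures in an exact permutation test (adjusted over 6 genes with *Fpr2*, p from 0.683 to 0.778, 0 with an unadjusted p under 0.05). The shares of *Fpr2*, the other gene, rest on too few reads to be read.

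Markers of the other cells of the cultures were called as follows in edgeR's test. Over all tested genes, 9.77% were called at 100 ng/ml and 7.87% at 30 ng/ml, in either direction. Of 11 astrocyte markers 2 rose (*Aldoc* by 0.29, *Gjb6* by 1.21) and *Gja1* fell by 0.19 at 100 ng/ml, and 4 rose at 30 ng/ml. *Gjb6* reached 1 CPM in 0 of 5 unstimulated cultures and passed the filter through the stimulated ones, so its call is not independent of the filter. Of 17 tested markers of cerebellar neurons, *Tubb3* rose by 0.43 and *Calb1* fell by 0.56 at 100 ng/ml, and 2 rose and 2 fell at 30 ng/ml. The 11.8% of neuron markers called at 100 ng/ml is near the share over all genes, and is no result about this list. Among 12 markers of the oligodendrocyte lineage, 3 fell at 100 ng/ml, *Mbp* by 0.31 and *Mag* by 0.30 among them, and *Cspg4* fell by 0.38 at 30 ng/ml. The 8.33% of this list called at 30 ng/ml is near the share over all genes. Of 6 tested endothelial markers *Flt1* alone was called, and it fell at both concentrations (by 0.57 with 100 ng/ml and by 0.60 with 30 ng/ml). A count of 1 in 6 says little beside the shares over all genes. Of 9 fibroblast and meningeal markers, *Mgp* rose by 0.49 and *Col1a1* by 0.36 at 100 ng/ml, while at 30 ng/ml 0 were called with edgeR, 4 had an unadjusted p under 0.05 and DESeq2 called 1 (*Mgp*). Of 11 markers of T and NK cells 2 passed the filter, *Cd4* (0.14 lower) and *Klrb1c*, and 0 were called by edgeR or DESeq2 or had an unadjusted p under 0.05. *Cd163* and *Mrc1* stand both among the scavenger receptors and the border macrophage markers, and *Clec12a* among the latter and the lectins.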
